A study of Mus musculus with 6 samples.

Results

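Dppa2, also called ECAT15-2, carries a SAP domain and is made in pluripotent cells and in the germline. For 122 genes of mouse embryonic stem cells a probe was at background in knockout cells without Dppa2 and measurable again when Flag-tagged Dppa2 was expressed in them. They were 122 of the 18344 genes that the array measures with probes designed on RefSeq messenger RNAs, through 126 of 27006 such probes. A gene was taken when a probe of it was flagged by the scanner as well above background on both Flag-Dppa2 arrays, on neither mock array and on both wild-type arrays, with a processed signal of at least 30 intensity units on both wild-type arrays. A further 13 genes that meet the same conditions were left out by the rule and are not described here, apart from 1 that stands on the fibroblast list (Loxl1). Applied without mock replicate 2 the rule finds 324 genes, and without Flag-Dppa2 replicate 2 it finds 204. The measured values of all 3 groups therefore chose the genes. They were selected on detection in Flag-Dppa2, mock and wild type and on the wild-type signal, so that their loss in mock and their gain over mock are descriptions. The degree of return, the Flag-Dppa2 signal set against the wild-type signal, was compared with a test. The rule bears on both sides of this contrast too, so its calls and shares are not free of the selection.

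The RNA, labelled with Cy3, was read on 6 one-colour Agilent arrays of the mouse genome, 2 for each of 3 groups. The cells were kept on gelatin in medium that held 15% serum together with LIF. The Flag-Dppa2 lines were Dppa2-deficient (15-2-/-) and homozygous for a conditional targeted allele of ECAT15-1, which is Dppa4 (15-1CT/CT), and carried a piggyBac vector that expresses Flag15-2 from the CAG promoter. The mock lines were the same knockout lines with the piggyBac vector lacking that insert, and the wild-type lines (15-1+/+, 15-2+/+) carried no vector. Replicates 1 and 2 are lines from blastocysts of different mothers, and Flag-Dppa2 and mock arrays of one number share a knockout line, so that by the labels each group stands on 2 lines of mixed 129Sv and C57/BL6 background and, for Flag-Dppa2, on 2 transductions. Any comparison with wild type also contains the transduction and the Dppa4 allele. Both Flag-Dppa2 arrays lay on 1 slide and the other 4 arrays on another, so slide and the Flag-Dppa2 group cannot be told apart.

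Dppa2 and its paralogue Dppa4 bind chromatin together at CpG-rich promoters in pluripotent cells and are known in mouse embryonic stem cells as activators of early embryonic genes and as factors that keep developmental promoters open for later use. In cells without them a set of promoters gains DNA methylation and loses active histone marks. Germ cell genes are a classical class of genes with CpG-rich promoters that are silenced by DNA methylation in somatic cells, and many of their promoters hold the E-box CACGTG, which MGA and its partner MAX recognise within a variant Polycomb complex.

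RefSeq promoter sequence, from 250 bases before to 50 bases after the gene start, was found for 94 of the 122 genes (77.0%), which is too few for a statement about promoters of the whole set. It was found for 12 of the 13 germ cell genes. The palindrome CACGTG was present in 4 of these 12, namely Ddx4, Mael, 4930447C04Rik and Hormad1, against 7.15% of all 32851 promoters of the same length, and GCGGGA on either strand was present in 6 of them, against 20% of all promoters. Over all 94 matched genes, 10 (10.6%) held the first of these motifs and 19 (20.2%) the second. A gene was counted if any of its promoters held the motif, while the shares of all promoters count each promoter on its own. These are unlike measures, and the promoters were not matched for CpG content. CACGTG is its own reverse complement, neither motif contains the other, and these 2 were the only ones searched. The promoters of Ddx4, Mael and Hormad1 are shown, picked after the search and after a look at promoters of some of the genes, as examples of germ cell genes that hold the palindrome and differ in return, with CACGTG in capitals (RefSeq sequence of assembly GRCm38.p6, on the strand of the gene, 5′ to 3′). They stand at chr13:112652261-112652560 (- strand), chr1:166238695-166238994 (- strand) and chr3:95559427-95559726 (+ strand).
Ddx4: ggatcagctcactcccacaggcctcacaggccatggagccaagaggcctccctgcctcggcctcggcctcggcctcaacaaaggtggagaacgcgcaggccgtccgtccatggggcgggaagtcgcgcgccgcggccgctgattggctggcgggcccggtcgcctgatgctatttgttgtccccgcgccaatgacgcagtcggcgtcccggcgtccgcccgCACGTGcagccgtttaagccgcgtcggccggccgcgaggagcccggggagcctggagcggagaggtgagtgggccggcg
Mael: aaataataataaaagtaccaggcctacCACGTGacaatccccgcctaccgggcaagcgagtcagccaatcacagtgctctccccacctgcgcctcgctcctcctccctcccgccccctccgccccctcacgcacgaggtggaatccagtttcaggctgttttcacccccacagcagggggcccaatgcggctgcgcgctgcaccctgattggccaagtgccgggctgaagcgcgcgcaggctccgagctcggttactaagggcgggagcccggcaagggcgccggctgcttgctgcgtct
Hormad1: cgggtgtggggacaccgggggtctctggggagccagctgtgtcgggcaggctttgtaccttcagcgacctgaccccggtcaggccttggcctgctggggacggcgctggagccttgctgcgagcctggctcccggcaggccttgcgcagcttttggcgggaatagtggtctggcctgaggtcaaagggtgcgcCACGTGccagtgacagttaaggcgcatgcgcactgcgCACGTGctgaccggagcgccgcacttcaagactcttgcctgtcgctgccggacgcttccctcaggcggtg
The Ddx4 window holds 38 CpG dinucleotides, that of Mael 24 and that of Hormad1 24, where the median over all promoters was 7. A match is a string of letters and no evidence of binding.

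The targeted gene was measured first. Dppa2 had signals of 757 and 1016 on the Flag-Dppa2 arrays, 184 and 198 on the mock arrays and 3443 and 3311 on the wild-type arrays. All signals here and below are processed intensities brought to a common 75th percentile. The Dppa2 probe thus read 26.0% of wild type in Flag-Dppa2 cells (log2 difference -1.95 ± 0.17, SE; adjusted p = 0.0422, limma), and it was above background in mock as well. Which part of the transcript the probe covers was not determined, so the total Dppa2 message may be read incompletely. Dppa4 had signals of 9545 and 10917 in Flag-Dppa2, 8671 and 10137 in mock and 6123 and 6255 in wild type. The Y-linked Ddx3y and Eif2s3y were well above background only on the wild-type arrays, and in comparisons with wild type the sex of a line and its genotype cannot be told apart. Of the 122 genes, 4 are X-linked (Dgkk, Ott, Tceal1 and Tceal3).

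The arrays were alike in range, with 55.8% to 60.2% of probes well above background, 75th percentiles of 712 to 857 intensity units and 0 saturated spots, and their number limits the precision. Replicate arrays of the knockout groups differed more than those of wild type. Among 14183 bright probes, 443 differed over 2-fold between the Flag-Dppa2 arrays, 479 between the mock arrays and 5 between the wild-type arrays. Whether the wild-type arrays, which are this much alike, are 2 samples or 1 could not be settled from the files. The test takes each array as a separate sample, as the labels do, so its errors and p-values against wild type are too small if they are 1. Marker lists of other cells were uneven between lines too. The summed signal of 25 fibroblast and feeder markers was 68291 and 45236 in Flag-Dppa2, 54907 and 42496 in mock and 69178 and 72887 in wild type, with Twist2 not well above background on any knockout array. The sum over 15 trophectoderm markers was 123442 and 45496 in Flag-Dppa2, 46771 and 31746 in mock and 65324 and 66233 in wild type, and all 15 were above background in Flag-Dppa2 and wild type. The part of these cells in the results below was not tested, and in bulk RNA fewer cells with a transcript and less transcript per cell cannot be told apart.

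Loss in the mock lines was deep for the genes with bright probes. By the log2 differences of the fit, 82 of the 122 genes were lower in mock than in wild type at an adjusted p under 0.05, where 3.16% of all 24820 probes tested were, and 38 were higher in Flag-Dppa2 than in mock, where 0.548% were; the rule chose the genes on these contrasts and nothing is read from the counts. Because mock signals lay at background, folds are lower bounds, computed against the higher of the mock probe's own signal and the dimmest signal that the scanner still called well above background. Ddx4 was at least 101-fold lower in mock than in wild type, Psmb8 at least 67.1-fold, Mael at least 41.6-fold and Car4 at least 37.8-fold. The median bound over the 122 genes was 3.63-fold, and most of the probes were dim, with wild-type signals from 33.4 to 2209 and a median of 71.1.

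Return ranged from 3.62% of the wild-type signal for Ddx4 to 156% for Cd200, with a median of 86.8% and quartiles of 59.8% and 103%. It was under 50% for 22 genes, between 50% and 100% for 64 and at or above 100% for 36. In the tested contrast, Flag-Dppa2 minus wild type, 3 genes were called lower (Hsf5, Nckap1l and Fam178b) and 0 higher by limma, with 27 of 122 at an unadjusted p under 0.05. Over all probes 0.588% were called, 0.407% lower and 0.181% higher, and 21.2% had an unadjusted p under 0.05. Both Flag-Dppa2 arrays lay below both wild-type arrays for 57 genes (46.7%, against 27.3% of all probes) and above both for 9 genes (7.38%, against 32.6% of all probes), and the groups overlapped for the other 56. The median log2 difference was -0.20 for the 122 genes and 0.03 for all probes. The rule set limits on both groups for the 122 genes but not for all probes, so these comparisons with all probes carry the selection. A gene that misses the threshold is not thereby shown to be back at its wild-type level, since 2 lines a group give wide errors.

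The 3 calls do not hold in every fit. Each was lost with the replicate number as a block, where limma called 0 of all 24820 probes and 22.95% of the 122 genes had an unadjusted p under 0.05, against 22.7% of all probes. Each was also lost with the mean of the wild-type arrays taken as 1 sample, where again 0 of all probes were called and the unadjusted shares were 9.84% of the genes and 8.21% of all probes. The 3 calls were lost as well without any single array, a fit that leaves 1 array in a group. The log2 differences then ran from -4.09 to -3.47 for Hsf5, from -2.81 to -2.40 for Nckap1l and from -1.89 to -1.70 for Fam178b. The difference of Hsf5 was -3.78 with the block as without it, and its adjusted p was 0.0715 with the block and ran from 0.00783 to 0.38 over all alternatives.

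Median return was lower among genes with brighter probes. For the 20 genes with a wild-type signal of 200 or more, the median return was 35.8%, and both Flag-Dppa2 arrays were below both wild-type arrays for 15 of them, against 28.0% of the 15726 probes of that brightness. The 25 genes between 100 and 200 had a median return of 63.8%, and the 77 genes under 100 had 91.7%. The rule itself bears on this order, because a gene had to be well above background in Flag-Dppa2 to be chosen. The lowest return that this leaves visible had a median of 5.80% for genes of 200 or more, 18.7% for those between 100 and 200 and 41.6% for those under 100, so a dim gene with little return could not be among the 122. Probe brightness also differs between probes of equal target amount, and the classes are therefore not classes of transcript abundance.

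**Figure D1:**
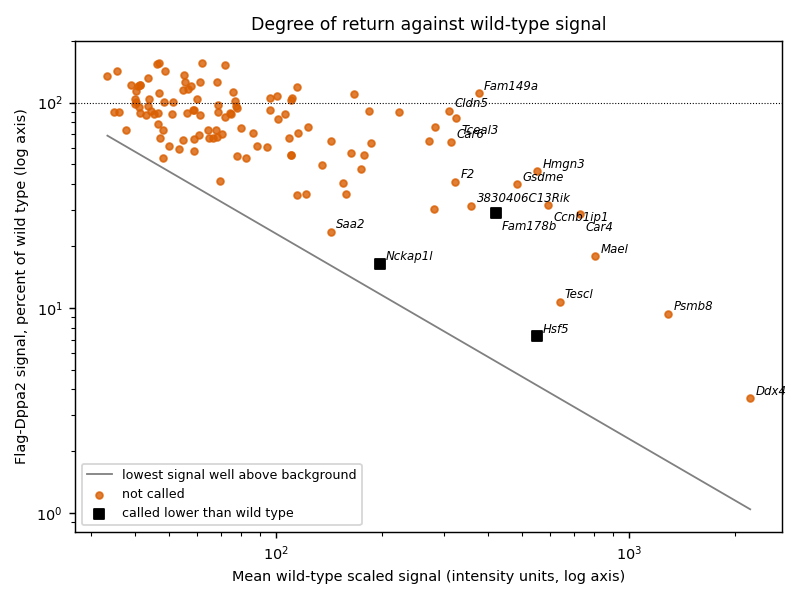
Return of the 122 genes against brightness: x axis, mean wild-type scaled signal (intensity units, log axis); y axis, Flag-Dppa2 signal as percent of wild type (log axis); each point is a gene, black squares are the 3 genes called lower, the grey line is the lowest return that still counts as well above background, and the dotted line is 100%. Genes of 200 or more reach down to 3.62% (Ddx4), and the grey line cuts off low returns for dim genes.

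Genes chosen without regard to the Flag-Dppa2 arrays were counted as well. Among 335 genes on in wild type at 30 or more and off in both mock arrays, with the 13 left-out genes included, 135 (40.3%) were well above background on both Flag-Dppa2 arrays, 101 on 1 and 99 on neither. With a wild-type signal of at least 200, where visibility is less of a limit, the numbers were 25, 5 and 9 of 39.

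Both Flag-Dppa2 arrays were below both wild-type arrays for 10 of 13 germ cell and meiosis genes (76.9%, against 27.3% of all probes). Both were above for 1 (7.69%, against 32.6% of all probes). Over the 122 genes these shares were 46.7% and 7.38%. The 13 germ cell and meiosis genes had a median return of 53.8%. They are Ddx4 (the RNA helicase Vasa), Mael (a piRNA pathway protein), Hormad1 and 4930447C04Rik (proteins of the meiotic chromosome axis and synaptonemal complex), Ccnb1ip1 (a ubiquitin ligase of crossover formation), H1f6 (a testis linker histone), and Odf3b, Dnah2, Pdcl2, Cox7b2, Nlrp14, Hsf5 and Ott. Ddx4 had signals of 133 and 48.1 in Flag-Dppa2, 30.5 and 7.73 in mock and 2204 and 2213 in wild type. Both Flag-Dppa2 lines lay far under wild type for Ddx4, whose difference of -4.79 ± 0.83 (SE, log2) did not pass the test (adjusted p = 0.0871). Hsf5, a heat shock factor of spermatocytes, had signals of 49.5 and 32.2 in Flag-Dppa2, 23.5 and 17.0 in mock and 565 and 534 in wild type. At 7.27% of wild type it was called lower (-3.78 ± 0.27, adjusted p = 0.0343, limma).

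Mael and Ccnb1ip1 came back further. Mael reached signals of 319 and 64.0 in Flag-Dppa2, against 9.74 and 3.41 in mock and 802 and 807 in wild type, so line 1 was at 39.7% and line 2 at 7.96%. Ccnb1ip1 was even between lines, with signals of 169 and 207 in Flag-Dppa2, 5.47 and 8.54 in mock and 605 and 574 in wild type (31.7%, adjusted p = 0.0784). Pdcl2, a testis phosducin-like protein, differed most between the lines in this group, at 26.7 in line 1 and 149 in line 2, against 159.9 and 151 in wild type. Among the meiotic genes, 4930447C04Rik was at 64.7%, Hormad1 at 65.8% (signals of 31.7 and 40.8 in Flag-Dppa2, 5.11 and 3.47 in mock and 57.1 and 52.4 in wild type) and H1f6 at 53.8%. A brighter probe of 4930447C04Rik, which was on in 1 mock array, gave a lower return of 32.7%, with signals of 623 and 346 in Flag-Dppa2, 18.4 and 20.9 in mock and 1414 and 1426 in wild type. Hormad1 also had a brighter probe that was on in 1 mock array, with signals of 111 and 138 in Flag-Dppa2, 22.3 and 24.3 in mock and 221 and 458 in wild type, a return of 38.9%. Of the other germ cell genes, Cox7b2, Nlrp14 and Ott were at 97.3%, 120.2% and 126%. Nlrp14 had a signal of 48.9 in both Flag-Dppa2 lines, above the 42.1 and 39.3 of wild type.

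A wider list of germ cell genes was looked at as well. Of 56 germline and meiosis genes on a list, 35 had a tested probe, 29 were on in both Flag-Dppa2 arrays, 22 in both mock arrays and 34 in both wild-type arrays. Their median log2 difference from wild type was -0.95 in Flag-Dppa2 and -2.08 in mock, with 1 called lower in Flag-Dppa2 (Meiob, 85.7 and 79.6 in Flag-Dppa2 and 182 and 182 in wild type; log2 -1.14 ± 0.10, adjusted p = 0.0426, limma) and 0 higher. By limma, 19 of the 35 (54.3%) had an unadjusted p under 0.05 for Flag-Dppa2 minus wild type, against 21.2% of all probes. Of all probes 0.588% were called. Ddx4, Mael and Hormad1 belong to this list as well, and so do some of the genes left out by the rule, which meet the same conditions. The selection therefore bears in part on the counts and medians of this list.

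Immune and blood genes numbered 20 and had a median return of 74.3%. Psmb8, a catalytic subunit of the immunoproteasome, had signals of 287 and 51.0 in Flag-Dppa2, 19.09 and 7.02 in mock and 1375 and 1222 in wild type, which is 22.1% of wild type in line 1 and 3.94% in line 2. Nckap1l, the WAVE complex subunit of blood cells, had signals of 37.3 and 28.2 in Flag-Dppa2, 7.83 and 6.35 in mock and 191 and 204 in wild type. It was called lower at 16.4% of wild type (-2.61 ± 0.19, adjusted p = 0.0347, limma). F2, the clotting protease precursor prothrombin, was at 24.6% in line 1 and 69.1% in line 2, with signals of 79.0 and 223 in Flag-Dppa2, 17.4 and 3.37 in mock and 335 and 309 in wild type. Saa2, an acute phase protein, stood at 23.4% (24.1 and 46.5 in Flag-Dppa2, 10.3 and 11.3 in mock, 146 and 140.4 in wild type). By contrast Dpp4, a cell surface dipeptidase, was at 109.5%, with signals of 258 and 129.7 in Flag-Dppa2, 6.97 and 9.29 in mock and 182 and 153 in wild type. Cd200, a surface ligand that restrains myeloid cells, had the highest return of all, with signals of 137 and 68.3 in Flag-Dppa2, 10.1 and 3.30 in mock and 66.3 and 58.0 in wild type. Its excess of 0.64 ± 0.64 on the log2 scale did not pass the test (adjusted p = 0.614).

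Metabolic enzymes, counted together with the retinoid-binding protein Rbp7, were the largest group, with 26 genes and a median return of 90.9%. The carbonic anhydrases Car4, Car6 and Car12, which hydrate carbon dioxide, returned to 28.5%, 64.4% and 55.5%. Car4 had signals of 406 and 107 in Flag-Dppa2, 5.86 and 3.95 in mock and 743 and 716 in wild type, while Car6 had 156 and 264 in Flag-Dppa2, 13.9 and 15.8 in mock and 318 and 311 in wild type. Upb1, an enzyme of pyrimidine breakdown, had signals of 136 and 339 in Flag-Dppa2, 4.96 and 6.42 in mock and 288 and 277 in wild type, so the lines fell on either side of wild type. Hsd17b1, a steroid dehydrogenase, returned to 90.4%, with signals of 148 and 274 in Flag-Dppa2, 7.33 and 14.3 in mock and 234 and 212 in wild type.

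Some genes of this group had a mean signal above wild type, without passing the test. Hkdc1, a hexokinase family member, had signals of 117 and 44.6 in Flag-Dppa2, 11.6 and 8.03 in mock and 44.2 and 49.2 in wild type (155%, adjusted p = 0.526). Hmgcll1, an HMG-CoA lyase, had 166 and 71.8 in Flag-Dppa2, 16.5 and 9.02 in mock and 61.9 and 83.2 in wild type (152%, adjusted p = 0.557). For both of these genes line 1 was above wild type and line 2 was not. Rbp7, a retinoid-binding protein, had 41.1 and 63.3 in Flag-Dppa2, 8.88 and 6.97 in mock and 35 and 36.2 in wild type. Its return was 143% (adjusted p = 0.327, limma). A brighter Rbp7 probe was on in both mock arrays, with 362 and 604 in Flag-Dppa2, 66.7 and 102 in mock and 302 and 297 in wild type. At the other end, Gstt1, a glutathione transferase, reached 41.7% and Ppm1k, a mitochondrial phosphatase of branched-chain amino acid breakdown, 35.9%.

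Genes of nuclear proteins, 9 in all, had a median return of 87.6%. Hmgn3, a nucleosome-binding protein, had signals of 424 and 152 in Flag-Dppa2, 5.45 and 3.51 in mock and 583 and 518 in wild type. Tceal3, of the X-linked elongation factor A-like family, had signals of 344 and 217 in Flag-Dppa2, 20.1 and 12.2 in mock and 319 and 330.4 in wild type. Another Tceal3 probe, not in the fit, was on in 1 mock array. It had signals of 186 and 116 in Flag-Dppa2, 170 and 7.27 in mock and 162 and 167 in wild type. The chromosomal neighbour of Tceal3, Tceal1, had signals of 101 and 86.3 in Flag-Dppa2, 22.6 and 6.44 in mock and 105 and 108 in wild type. These neighbours came back to 84.1% and 87.6%, while Hmgn3 came back to 46.2%. The developmental transcription factors Zic2, Mesp2 and Hoxd4 were at 115%, 67.4% and 89.8%.

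The transport and trafficking group held 10 genes with a median return of 89.6%. Slc39a8, a zinc and manganese importer, was at 131 and 34.7 in Flag-Dppa2, 6.21 and 4.55 in mock and 135 and 135 in wild type, so line 1 had 96.6% of wild type and line 2 had 25.7%. Slc26a4, the anion exchanger pendrin, had signals of 85.3 and 79.1 in Flag-Dppa2, 15.7 and 13.1 in mock and 123 and 108 in wild type. Stx17, a syntaxin of autophagosome fusion, had 95.4 and 39.7 in Flag-Dppa2, 6.5 and 3.27 in mock and 113 and 108 in wild type. Slc26a4 was even between the lines at 71.1%, whereas Stx17 was at 86.1% in line 1 and 35.9% in line 2. Rab32, a small GTPase, had 194 and 71.7 in Flag-Dppa2, 11.6 and 3.24 in mock and 108 and 115 in wild type.

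Adhesion, matrix and cytoskeleton genes, 14 in all, had a median return of 91.7%, and for 10 of them the Flag-Dppa2 and wild-type arrays overlapped. Both Flag-Dppa2 arrays were below both wild-type arrays for 3 (21.4%, against 27.3% of all probes) and above for 1 (7.14%, against 32.6%). Cldn5, a tight junction protein, had signals of 349 and 231 in Flag-Dppa2, 5.51 and 13.2 in mock and 288 and 335 in wild type. Mfap4, a microfibril protein, had signals of 117 and 62.7 in Flag-Dppa2, 21.4 and 12.4 in mock and 284 and 277 in wild type, which is 30.5%. Snorc, a cartilage proteoglycan, had 53.7 and 31.3 in Flag-Dppa2, 14.2 and 9.46 in mock and 83.8 and 158 in wild type. Mfap4 and Snorc were the only genes of this group under 50%.

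Signalling genes, 15 in all, had a median return of 71.2%. Tgfbr2, a receptor of TGF-beta, had signals of 93.4 and 34.6 in Flag-Dppa2, 11.9 and 12.5 in mock and 139.8 and 179 in wild type (35.9%). Cnrip1, which binds the cannabinoid receptor, had 117 and 74.8 in Flag-Dppa2, 5.11 and 3.25 in mock and 144 and 143 in wild type (65.1%). Ecrg4, a secreted peptide precursor, had 75.7 and 116 in Flag-Dppa2, 4.80 and 3.13 in mock and 190.5 and 79.9 in wild type, with wild-type arrays that themselves differed over 2-fold. The Ras-association proteins Rassf4, Rassf6 and Rassf8 returned to 58.1%, 71.2% and 78.2%, and the secreted factors Bdnf, Grp, Dkk3, Ptn and Rln3 to 84.7%, 67.1%, 73.1%, 134% and 143%.

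Gsdme, the pore-forming gasdermin E of cell death, stood alone in its class, with signals of 314 and 119 in Flag-Dppa2, 4.84 and 3.14 in mock and 491 and 476 in wild type (39.9%). The remaining 14 genes, 2 of them without a symbol, had a median return of 104%, but the brightest of them returned little. Tescl, a tescalcin-like gene, had signals of 145 and 32.2 in Flag-Dppa2, 5.03 and 3.29 in mock and 639 and 635 in wild type. Fam178b had signals of 129.9 and 114 in Flag-Dppa2, 5.50 and 6.28 in mock and 406 and 435 in wild type, and was called lower at 28.9% (-1.79 ± 0.13, adjusted p = 0.0343, limma). Fam149a had signals of 491 and 352 in Flag-Dppa2, 10.2 and 3.84 in mock and 366 and 386 in wild type, and was the only gene of 200 or more at or above 100%. Rhbdl3, a rhomboid-like protein with 1 of the highest returns (153%), had signals of 26.3 and 190.1 in Flag-Dppa2, 23.6 and 15.5 in mock and 47.1 and 45.2 in wild type, so its return rests on line 2.

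**Figure D2:**
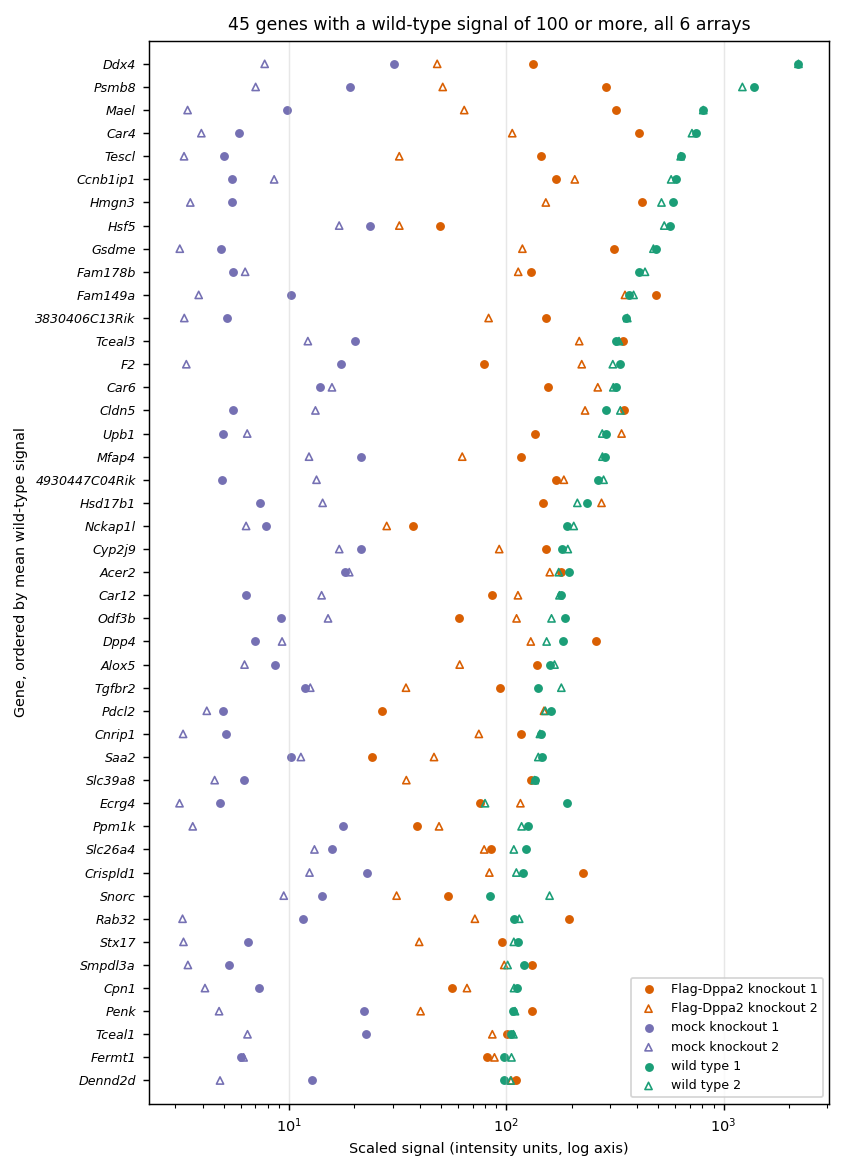
The 45 genes with a mean wild-type signal of 100 or more on all 6 arrays: x axis, scaled signal (intensity units, log axis); y axis, genes ordered by wild-type signal; filled circles are line 1 and open triangles line 2, orange for Flag-Dppa2, purple for mock and green for wild type. Mock points lie furthest left in every row. Most orange points lie between them and the green points, with the widest gap at the top of the plot (Ddx4, 133 and 48.1 against 2204 and 2213), and some lie beyond the green points (Dennd2d, Rab32, Crispld1, Dpp4 and Fam149a among them).

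**Figure D3:**
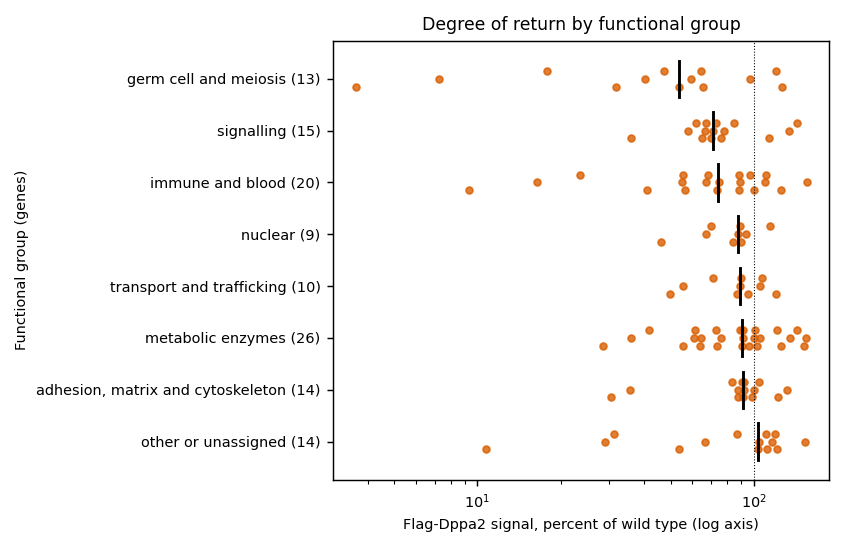
Return by functional group: x axis, Flag-Dppa2 signal as percent of wild type (log axis); each point is a gene, the vertical bar is the group's median, and the number of genes stands in brackets; Gsdme, alone in its group, is not drawn. Germ cell and meiosis genes have the lowest median, 53.8%, and their points reach from 3.62% to 126%.

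The groups were assigned by hand from the genes' known roles, and the share of bright probes differs between them: the median wild-type signal was 156 for the germ cell genes and between 53.3 and 84.8 for the other groups of more than 1 gene. How far brightness accounts for the order of the groups was not tested.

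The 2 Flag-Dppa2 lines differed in the level of these genes. Line 2 minus line 1 had a median of -0.15 (log2) over the 122 genes, against 0.04 over all probes. It was over 2-fold lower in line 2 for 24 genes (19.7%, against 6.16% of all probes) and over 2-fold higher for 7 (5.74%, against 4.31%). The genes with a wild-type signal of 200 or more had a median return of 45.2% in line 1 and 27.3% in line 2. Psmb8, Mael and Tescl were the furthest lower in line 2, by 2.49, 2.32 and 2.17 on the log2 scale, and Rhbdl3 and Pdcl2 the furthest higher, by 2.85 and 2.48. In the mock arrays, which share the knockout lines and where the signals were not well above background, line 2 minus line 1 had a median of -0.50 over the 122 genes and was over 2-fold lower for 18.9% of them, against 6.38% of all probes. The dimmest signal called well above background, before scaling, was 24.5 on mock array 1 and 14.6 on mock array 2. How far this offset bears on the mock difference was not tested. Each line is 1 array, so the difference has no test. The Dppa2 probe, which was above background in mock too, read 757 in line 1 and 1016 in line 2. Its bearing on the difference between lines was not tested. The fibroblast and trophectoderm marker sums given above were higher in line 1, and a few bright genes carry these sums. In Flag-Dppa2 lines 1 and 2, Krt8 had signals of 39937 and 8490, Krt18 65744 and 16249 and Tagln 17175 and 3216. Most fibroblast markers were higher in line 1, dimmer ones too, such as Col1a1 (266 and 54.3) and Col1a2 (258 and 51.3). Of that list only Thy1 (710 and 1363), Acta2, Cdh11 and Twist2 were higher in line 2, and Twist2 was not well above background. Trophectoderm markers went both ways, with Tfap2c (3577 and 8927) and Gata2 (479 and 788) among those higher in line 2. The part of such cells in the difference between lines was not tested. In wild type the 122 genes differed between replicates by a median of -0.02, with 1 gene over 2-fold in each direction.

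**Figure D4:**
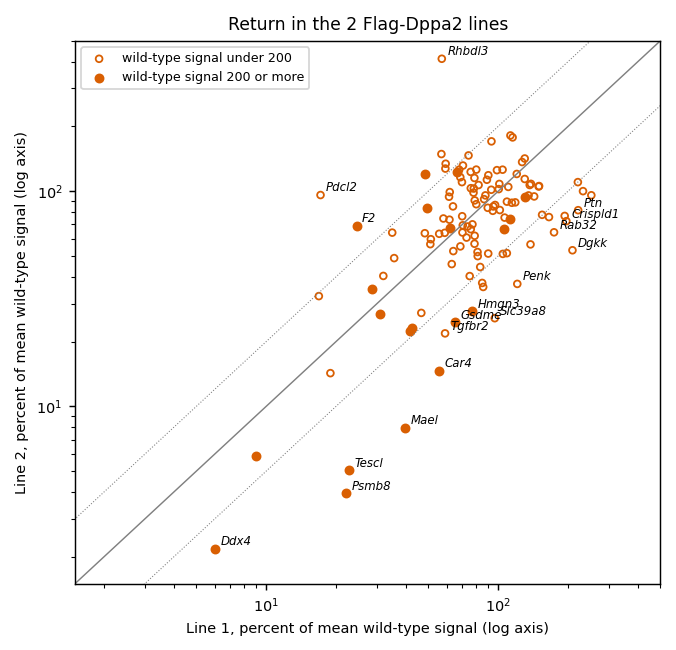
Return in Flag-Dppa2 line 2 (y axis) against line 1 (x axis), both as percent of the mean wild-type signal on log axes; each circle is a gene, filled for a wild-type signal of 200 or more; the solid line marks equal return and the dotted lines a 2-fold difference. Of the 20 filled circles 14 lie below the solid line, from Ddx4 (6.03% in line 1, 2.18% in line 2) upward, and Rhbdl3 stands apart at 57.1% and 412%.

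Other probes of the same genes give a second reading. For 42 of the genes the array held 56 further probes, and 30 of these, from 28 genes, were on in wild type (both arrays). Of these 30 probes, 28 had a lower fitted mean in mock than in wild type and 28 a higher fitted mean in Flag-Dppa2 than in mock. Probes of Dennd2d, Psmb8 and Alox5 among the 30 met the rule themselves, so the selection fixed their state in advance. They are counted in these numbers and in those below, and the Alox5 probe is also 1 of the 17 brighter probes. The Tceal3 probe given above had no fitted value, and the Rhbdl3 probe given below went the other way in both. The state off in mock was met by 10 of the 30, another 9 were on in 1 mock array and 11, from 11 genes, in both (among them Bdnf, Peg3, Penk and Rhbdl3). The signal was lower in mock than in wild type for 10 of these 11 probes. For 17 genes another probe had a higher wild-type signal than the probe described here, and 9 of these brighter probes were on in both mock arrays and 7 in 1. Their median return was 61.4%, against 84.7% for the described probes of the same genes, and it was lower than that of the described probe for 11 of 17. For Penk, the precursor of enkephalins, the other probe had signals of 1126 and 319.7 in Flag-Dppa2, 202 and 40.0 in mock and 1035 and 968 in wild type: low in mock, yet not off. For Bdnf, a neurotrophin, it had 131 and 213 in Flag-Dppa2, 58.7 and 51.9 in mock and 156 and 165 in wild type. Rhbdl3 disagreed between probes, with 46.8 and 54.4 in Flag-Dppa2, 52.7 and 56.0 in mock and 43.6 and 40.9 in wild type on 1 of them. Without these 11 genes the median return was 84.1% over 111 genes.

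At the threshold, the 3 genes just inside the minimum were Hoxd4, Hbq1a and Ptn, whose lower wild-type processed signals were 33.3, 33.9 and 34.3. Only 1 gene fell just outside, Hdac9 at 29.4, with processed signals of 29.8 and 24.7 in Flag-Dppa2, 5.99 and 3.16 in mock and 29.4 and 39.2 in wild type. The genes lie on 20 chromosomes, with 2 pairs of neighbours among the genes on the array: Tceal3 and Tceal1 on the X chromosome, and H1f6 and Hfe on chromosome 13.

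Other gene lists were set beside the 122 genes. The two-cell-like genes, which mark a rare state of embryonic stem cells, were on in wild type for all 7 tested, on in both mock arrays for 1 and on in both Flag-Dppa2 arrays for 1, Eif1a. Of the 7, 3 were called lower in Flag-Dppa2 than in wild type, and none of them is among the 122. Usp17la had signals of 9.35 and 12.5 in Flag-Dppa2, 18.4 and 14.5 in mock and 289 and 290.5 in wild type (adjusted p = 0.0218 for Flag-Dppa2 minus wild type, limma). Among 28 tested interferon and antigen presentation genes, which include Psmb8, 1 was called lower (Ifi35, 299 and 306 in Flag-Dppa2, 237 and 294 in mock, 865 and 898 in wild type; adjusted p = 0.0434, limma) and 0 higher, with a median of -0.49. Among 25 membrane transport and ion genes, which include Car4 and Car12, 1 was called lower (Car14, log2 -1.78) and 1 higher (Abca1, log2 2.82), with a median of 0.15. The fibroblast list had 2 of 25 called lower (Loxl1 and Twist2) and the trophectoderm list 1 of 15 called higher (Cdkn1c, log2 1.61). Of all probes 0.588% were called. Unadjusted limma p-values under 0.05 were more frequent in these lists: 7 of 7 two-cell-like genes (100%) and 12 of 28 interferon genes (42.9%). They were 11 of 25 for transport (44%), 7 of 25 for fibroblast (28%) and 10 of 15 for trophectoderm (66.7%). These counts take both directions together. Of the two-cell-like genes, Eif1a was higher in Flag-Dppa2 than in wild type (log2 0.31) and the others were lower. By limma 0 genes were called in Flag-Dppa2 minus wild type in the other lists, for which the count at an unadjusted p under 0.05 is given beside the 21.2% of all probes: 11 of 44 lysosome genes (25%, median 0.07), 5 of 38 redox and glutathione genes (13.2%, 0.01), 6 of 30 amino acid and nucleotide breakdown genes (20%, 0.05), 6 of 24 cell death genes (25%, 0.25), 7 of 18 endoderm genes (38.9%, 0.75) and 7 of 23 naive pluripotency genes (30.4%, 0.17). The naive pluripotency genes were on in all 6 arrays.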

How the data were processed

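Per the file headers, the authors' intensity values are output of Agilent's Feature Extraction, version 10.7.3.1 (protocol GE1_107_Sep09), which subtracts background and removes spatial trends within an array without scaling between arrays. The deposited log2 values of the series table have nearly equal medians, as after quantile normalization, and served as 1 alternative. The headers name build mm9, so places and promoters come from RefSeq GRCm38.p6 by accession, and 26630 of 27006 messenger RNA probes had a symbol there. The deposited flag columns (other) mark spots well above background.

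Without the 1639 control spots and without outlier spots, log2 signals were taken relative to the array's own 75th percentile. The 24820 probes that were well above background on 2 or more of 6 arrays went into 1 limma fit of 3 groups with Benjamini-Hochberg adjustment, two-sided, called at 0.05 (limma 3.58.1, R 4.3.3; Python 3.11.15, numpy 2.4.6, pandas 2.3.3, matplotlib 3.10.9). Signals are printed after scaling to the mean 75th percentile, 787. The fit was tested on simulated data.

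Members and gene lists were chosen with earlier results of these data known. Chosen after the values were seen were the functional groups, the signal classes of 100 and 200, the promoters shown, and the reading that all spots of a probe must meet the rule. Genes with full values are the 2 to 4 brightest in wild type of each group, the 5 highest and 5 lowest returns, the threshold genes, Dppa2 and Dppa4, and at most 2 called genes per list; a few others (Pdcl2, Hormad1, 4930447C04Rik, Stx17, Nlrp14, Saa2, Dpp4, Penk and Bdnf) were picked after their values were seen. Same-numbered Flag-Dppa2 and mock arrays share a knockout line, per the labels, and their deviations from the group means correlated at 0.58, while Flag-Dppa2 and wild type correlated at 0.01 and mock and wild type at -0.02. Alternatives were other scalings and filters, normexp background correction (on median signals, offset 50), a replicate block, averaged wild-type arrays and each array left out.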

Additional observations from a re-analysis of the deposited data

Results flagged for a closer look

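For 3 genes the Flag-Dppa2 lines lay on opposite sides of wild type, each by over 1.5-fold, a limit set after the data were seen; the difference between lines was not tested. Dgkk, a diacylglycerol kinase, was at 209% of wild type in line 1 and 53.1% in line 2. Rab32, a small GTPase of organelle traffic, was at 174% in line 1 and 64.4% in line 2. Rhbdl3 was at 57.1% in line 1 and 412% in line 2, but another of its probes read the other way, with signals of 387 in line 1 and 23.5 in line 2, against 40.1 and 39.5 in wild type.

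A further 23 features with other kinds of accession met the same conditions and were not described in the comparisons.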

How the results depend on the processing

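Flag-Dppa2 minus wild type had 3 called genes, and limma called 3 as well under quantile normalization, the authors' log2 values, 1 probe per gene, another detection filter, an intensity trend, outlier spots kept or a wild-type minimum of 100, and 5 with normexp. It called 0 with no filter on dim probes, where 25 genes (20.5%, against 12.3% of all probes) had an unadjusted p under 0.05 by limma. With the replicate block it called 0 too, with 28 genes (22.95%, against 22.7% of all probes) under that limit. The pairing by line is known for the knockout arrays only. The 3 calls were also lost with averaged wild-type arrays and with any 1 array left out, fits that leave 1 sample in a group. The median log2 difference from wild type was -0.20, and it was -0.10 by quantile normalization, -0.042 by normexp, -0.092 in the authors' log2 values, -0.22 with 1 probe per gene (104 genes), -0.85 with a minimum of 100 (44 genes) and -0.34 to -0.20 with an array left out. The line difference was -0.026 by normexp and -0.54 with a minimum of 100. Normexp with its offset compresses dim signals. All probes called numbered 146, against 0 to 442 over the alternatives. The rule found 44 genes with a minimum of 100, 128 to 324 with an array left out (324 without mock replicate 2 and 204 without Flag-Dppa2 replicate 2), 87 with an 8-fold limit in mock, 145 with any accession and 130 if 1 spot of a probe suffices, which adds Cav2, Cd44, Csf1, Lhfp, Lta, Mapk8, Mmp9 and Mzb1. A slide block was not run, because slide and the Flag-Dppa2 group cannot be told apart. Of the gene values under the alternatives, 1813 kept their call and moved little, 92 moved, 27 lost a call, 2 gained one (Ddx4 and Ccnb1ip1, both by normexp with limma) and 0 changed sign while called.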
